A study of Mus musculus with 8 samples.

Results

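The regions described here are peaks of H3K9me3, trimethylation of lysine 9 of histone H3, in wild-type (WT) mouse embryonic fibroblasts (MEF) that lay at or near a peak of KAP1. A WT H3K9me3 peak was included when its nearest edge was within 10 kb of a WT KAP1 peak, and an overlap counted as a distance of 0. Of the 14596 WT H3K9me3 peaks, 469 met this rule (3.21%), and 14127 lay farther away. The regions were chosen by their positions in the WT H3K9me3 and WT KAP1 lists, so their closeness to KAP1, and their length and score in the same list, are given as a description. Presence in the KO lists and overlap with H4K20me3 came from libraries that the rule did not use.

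Chromatin immunoprecipitation with sequencing (ChIP-seq) was done in MEF, connective tissue cells taken from embryos. The groups were H3K9me3 in MEF labelled KAP1 KO and in WT MEF, H4K20me3 in KAP1 KO and in WT MEF, and KAP1 in WT MEF, with 1 library each. The remaining 3 samples were inputs without antibody, not analysed here. The allele, the way the knockout was made and the number of animals or clones behind each culture are not stated in the labels. KAP1 was not profiled in KO cells, which leaves the knockout itself unchecked. A single library per group allowed no test between genotypes, so no p-value is given and no difference has a replicate check. Intervals are exact Clopper-Pearson 95% intervals, which cover counting error over peaks only and treat peaks as independent, although neighbouring peaks share a KAP1 peak.

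KAP1, also named TRIM28, is a corepressor that does not bind specific DNA sequences itself. KRAB zinc finger proteins bind their target sequences and recruit it, and KAP1 in turn brings the methyltransferase SETDB1, which deposits H3K9me3, and proteins of the HP1 family, which bind that mark. HP1 can recruit the SUV420H enzymes, which deposit H4K20me3, trimethylation of lysine 20 of histone H4. In mouse cells KAP1 is known for silencing endogenous retroviruses and for maintaining imprinting control regions. No annotation of the build used by the files (mm9) was used here, so regions are named by position and no gene is assigned to them.

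The lists held 3176 H3K9me3 peaks in KO and 14596 in WT, 8920 H4K20me3 peaks in KO and 11295 in WT, and 372 KAP1 peaks in WT. Each peak has a score deposited by the authors, read here as a MACS score, which grows with enrichment, depth and width and serves only to rank peaks within its list. Read counts are not part of the lists. The depth of each library is therefore unknown, and a peak that was not called may lie below the threshold. A WT peak is called kept where a KO peak of the same mark shared at least 1 bp with it, and lost otherwise.

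H3K9me3 peaks in WT cells gathered tightly at KAP1 peaks, and their number per length of sequence fell off within a few kb. Of the 469 peaks near KAP1, 189 (40.3%) overlapped a KAP1 peak, 96 lay up to 1 kb away, 119 over 1 to 5 kb and 65 over 5 to 10 kb. Relative to the length of sequence at each distance, this was 906 H3K9me3 peaks per Mb on KAP1 peaks, 130 per Mb up to 1 kb, 41.0 per Mb over 1 to 5 kb and 18.2 per Mb over 5 to 10 kb. Just outside the limit, over 10 to 20 kb, there were 9.23 per Mb, and over the whole span of the sequences 5.52 per Mb. Any peak that touched a KAP1 peak was counted as on it, and how far peak length bears on the value there was not tested.

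Coverage around KAP1 centres differed between the genotypes mainly in the innermost few kb. In the 500 bp on either side of the centre, KO H3K9me3 peaks covered 3.72% and 3.04% of the sequence, against 33.3% and 35.3% for WT H3K9me3 peaks. The same bins were covered to 2.11% and 2.69% by KO H4K20me3 peaks, against 12.7% and 13.0% by WT H4K20me3 peaks. By distance from the KAP1 edge, KO H3K9me3 peaks covered 1.18% of the sequence over 1 to 5 kb and 0.543% over 5 to 10 kb, and WT H3K9me3 peaks 4.34% and 1.36%. KO coverage at the edge of the window was still above the 0.0868% of the whole span covered by KO H3K9me3 peaks. The KO list is the shorter one as a whole, so these values compare 2 lists and not amounts of the mark. The number of H3K9me3 peaks in KO relative to WT was 0.164 within 10 kb of KAP1 (77 KO and 469 WT peaks) and 0.219 farther away.

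**Figure D1:**
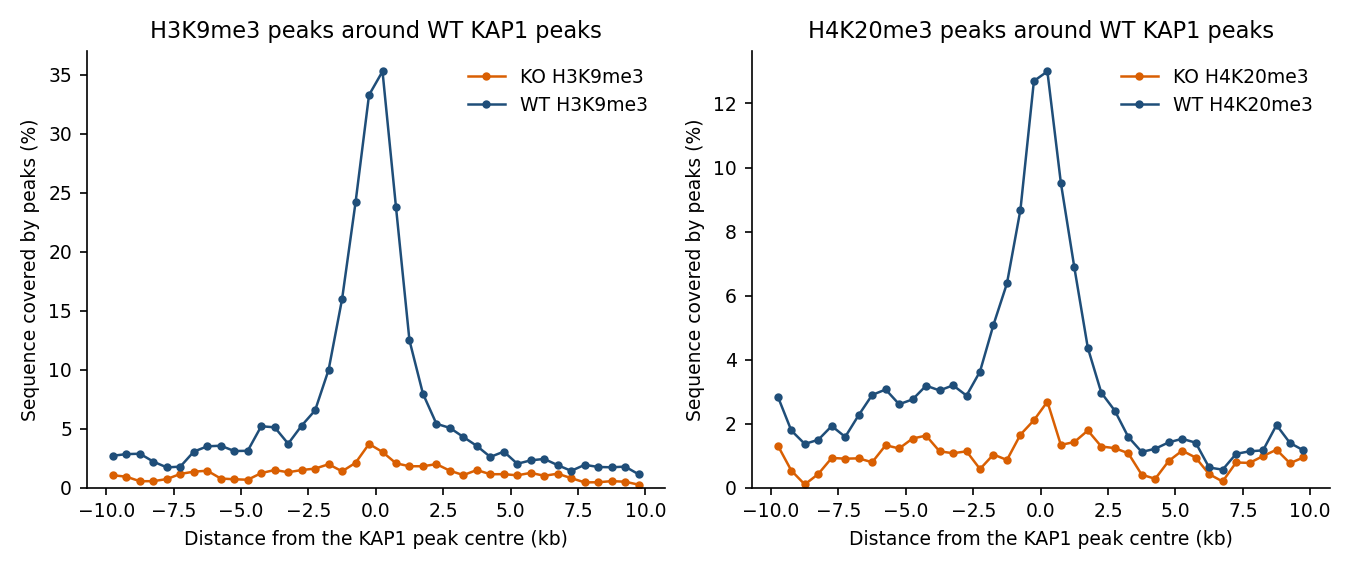
Share of sequence covered by H3K9me3 peaks (left) and H4K20me3 peaks (right) in KO and WT, in bins of 500 bp by distance in kb from the centre of the 372 WT KAP1 peaks, with 1 library per line. WT H3K9me3 coverage peaks at 35.3% next to the centre, where KO coverage is at most 3.72%, and WT H4K20me3 coverage peaks at 13.0%, where KO coverage is at most 2.69%.

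Where an H3K9me3 peak and a KAP1 peak overlapped, the H3K9me3 peak was usually the longer of them and mostly covered the KAP1 peak. At 165 of the 372 KAP1 peaks an H3K9me3 peak overlapped, and the median KAP1 peak among these had 96.8% of its length inside H3K9me3. In 75 cases the KAP1 peak lay wholly inside. Of the 189 H3K9me3 peaks on KAP1, 140 were longer than their KAP1 peak and 139 held its centre, 96 of them in their own central 50%. At 23 KAP1 peaks more than 1 H3K9me3 peak overlapped.

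KAP1 peaks differed in how many H3K9me3 peaks surrounded them. Within 10 kb, 202 KAP1 peaks (54.3%) had an H3K9me3 peak, 37 of them without any overlap, and 170 had none. When each H3K9me3 peak was assigned to its nearest KAP1 peak, 78 KAP1 peaks had 1, 55 had 2, 32 had 3, and 35 had 4 or more. Those 35 accounted for 185 of the 469 peaks. Most H3K9me3 peaks that lay beside KAP1 and not on it were neighbours of a marked KAP1 peak, since for 231 of these 280 (82.5%) the nearest KAP1 peak overlapped another H3K9me3 peak. They lay on the left of KAP1 in 156 cases and on the right in 124.

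The KAP1 peak with most H3K9me3 peaks near it was one of the weakest. It lay on chromosome 10 from 81571728 to 81572058, scored 51.3 and had 12 H3K9me3 peaks between 81560986 and 81581156, with scores from 52.4 to 679. The next was one of the strongest, on chromosome 8 from 79972320 to 79973596, with a KAP1 score of 2931 and 9 H3K9me3 peaks that scored between 52.1 and 1555. A KAP1 peak on chromosome 6, from 149310790 to 149311499, scored 148 and also had 9, with scores from 54.1 to 512. In all 3 cases a single H3K9me3 peak overlapped KAP1, and none of the 30 peaks was kept in KO. Of all WT H3K9me3 peaks 3.10% were kept, so a count of 0 among 30 is not read as particular to them.

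H3K9me3 peaks on KAP1 ranked high in the WT list, and those beside it ranked near the middle. The median score percentile was 90.4 on KAP1, 58.7 up to 1 kb, 54.7 over 1 to 5 kb and 46.9 over 5 to 10 kb, against 49.5 for all WT H3K9me3 peaks farther than 10 kb. Median lengths were 938, 482, 494 and 454 bp in the same order of distance, against 456 bp farther away. On KAP1, 97 of 189 peaks (51.3%) were in the top 10% of scores and 36 were longer than 2 kb, while farther than 10 kb 1332 of 14127 (9.43%) were in the top 10% and 242 (1.71%) were longer than 2 kb. Beyond the overlap itself, distance and score were hardly related, with a Spearman rho of -0.08 over the 280 peaks beside KAP1, and of -0.02 for length. These are descriptions across peaks of 1 library that share KAP1 peaks. The top of the WT list was rich in regions near KAP1, with 7 of the 10 highest-scoring peaks, 26 of the 100 and 71 of the 500.

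**Figure D2:**
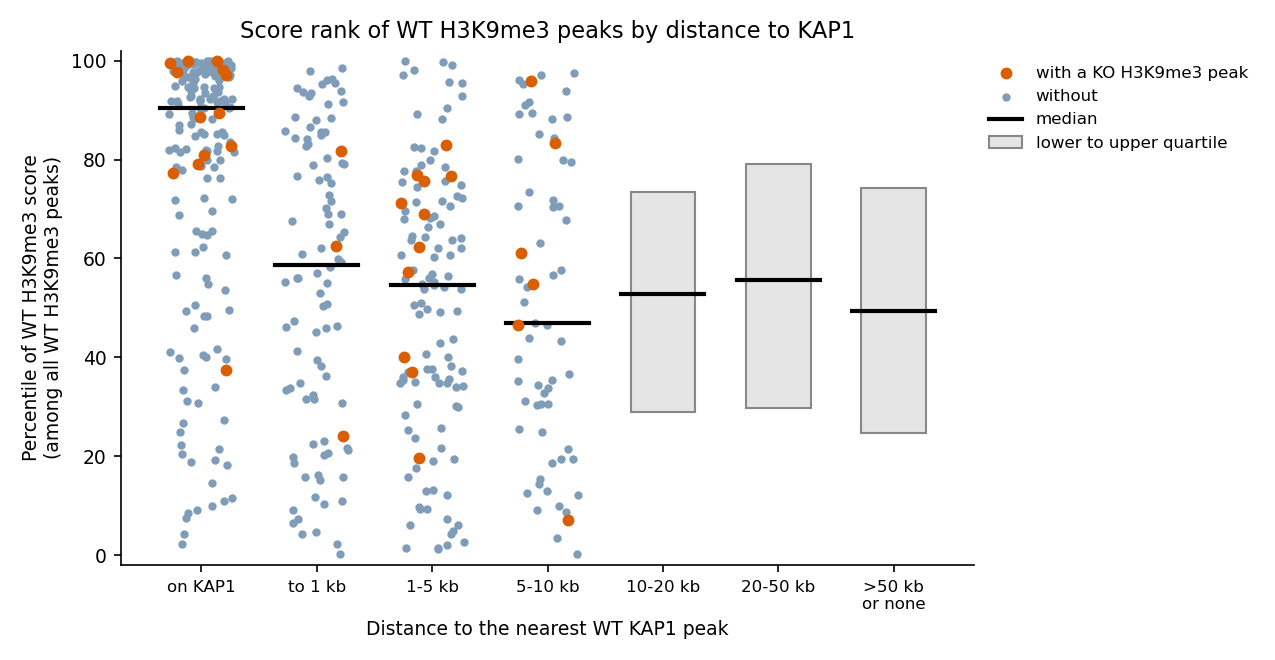
Percentile of the WT H3K9me3 score (vertical axis, among all 14596 WT peaks) by class of distance to the nearest WT KAP1 peak, with a point for each of the 469 peaks within 10 kb, bars for medians and boxes from the lower to the upper quartile for the classes farther away. Peaks on KAP1 have a median at percentile 90.4, and the classes beside it between 46.9 and 58.7. The kept peaks on KAP1 lie mostly in the upper part, as do peaks on KAP1 in general.

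The rule has a sharp limit, with peaks on either side of it. The farthest peaks inside it lay on chromosome 4 (145413861 to 145414931, 9967 bp from KAP1, score 147) and chromosome 2 (151929578 to 151930211, 9896 bp, score 92.1). The nearest outside lay on chromosome 17 (17187988 to 17188341, 10195 bp, score 51.8) and chromosome 11 (67894739 to 67895228, 10265 bp, score 78.0). None of the 4 had a KO H3K9me3 peak, and the one on chromosome 2 alone touched a WT H4K20me3 peak.

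A larger share of the H3K9me3 peaks near KAP1 than of those farther away also carried H4K20me3. Of the 469 peaks near KAP1, 101 overlapped a WT H4K20me3 peak (21.5%, interval 17.9 to 25.5%), while 1167 of the 14127 farther away did (8.26%, interval 7.81 to 8.73%), and 8.69% of all WT H3K9me3 peaks. The share was 32.8% on KAP1 (62 of 189, interval 26.2 to 40.0%), 12.5% up to 1 kb, 17.6% over 1 to 5 kb and 9.23% over 5 to 10 kb. Beside KAP1 it was 39 of 280 (13.9%, interval 10.1 to 18.5%). Over 10 to 20 kb, outside the limit, it was 16.9% (11 of 65, interval 8.76 to 28.3%), so the share did not fall steadily with distance.

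Part of this difference was also seen between strong or long H3K9me3 peaks and others far from KAP1, and the share on KAP1 lay above what score and length gave there. The 32.8% on KAP1 stood against 19.5% of the peaks farther away when these were weighted to the same deciles of score, and 16.9% when weighted by length. Weighted to score and length together, the peaks farther away gave 19.7%. The 13.9% beside KAP1 stood against 8.78% of the peaks farther away weighted by score and 9.03% by length. With peaks within 5 kb merged it was 4.35% (2 of 46, interval 0.531 to 14.8%). With the highest-scoring peak of each KAP1 peak alone it was 8.93% (5 of 56, interval 2.96 to 19.6%). Both intervals hold 13.9% as well as the 8.26% of unmerged peaks farther away. Both alternatives also change which peaks count as beside KAP1. Merging joins many of them to a peak on KAP1. With 1 peak per KAP1 peak, those beside KAP1 stay only where none on it scored higher. With few peaks and another set, these alternatives cannot tell whether the higher share beside KAP1 holds. The share beside KAP1 was 27.0% (17 of 63) with all lists cut at a score of 100. With all WT H3K9me3 peaks split by score into 3 equal groups, 6 of the 20 peaks on KAP1 in the lowest group carried H4K20me3 (30.0%, interval 11.9 to 54.3%), against 154 of 4767 peaks farther away (3.23%). In the highest group, 51 of 141 on KAP1 did (36.2%), against 748 of 4621 farther away (16.2%).

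Most of these H3K9me3 peaks were lost in KO, as most WT H3K9me3 peaks were. Of the 469, 33 had a KO H3K9me3 peak (7.04%, interval 4.89 to 9.74%), against 419 of the 14127 farther away (2.97%, interval 2.69 to 3.26%), and 3.10% of all WT H3K9me3 peaks. By distance, 13 of 189 were kept on KAP1 (6.88%, interval 3.71 to 11.5%), 3 of 96 up to 1 kb (3.12%), 11 of 119 over 1 to 5 kb (9.24%) and 6 of 65 over 5 to 10 kb (9.23%). Over 10 to 20 kb it was 11 of 65 (16.9%, interval 8.76 to 28.3%), and over 20 to 50 kb 5 of 207 (2.42%). The 6.88% on KAP1 was close to the values for peaks farther away when weighted to the same deciles, 5.54% by score and 6.95% by length. Without chromosome 7 the share of all peaks near KAP1 was 4.20% (18 of 429), and with every list cut at a score of 100 it was 2.00% (3 of 150). Beside KAP1, 20 of 280 peaks were kept (7.14%, interval 4.42 to 10.8%), against weighted values of 3.12% by score and 3.29% by length for peaks farther away.

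**Figure D3:**
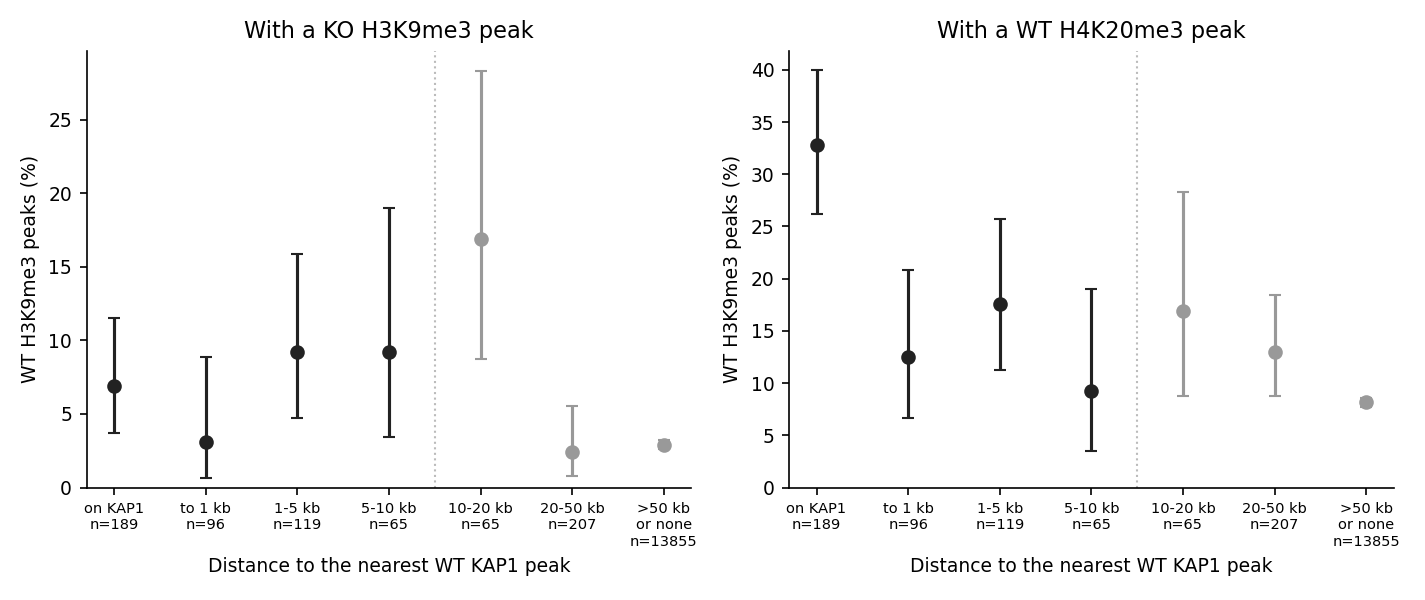
Share of WT H3K9me3 peaks with a KO H3K9me3 peak (left) and with a WT H4K20me3 peak (right) by distance to the nearest WT KAP1 peak, with exact 95% intervals over peaks (counting error only), classes within 10 kb in black and farther ones in grey. The share with H4K20me3 is highest on KAP1 at 32.8%, and the share also called in KO has no steady course, from 3.12% up to 1 kb to 16.9% over 10 to 20 kb.

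The kept peaks were bunched in a few places. Peaks near KAP1 that lay within 10 kb of each other were joined into 193 stretches, of which 14 held a kept peak (7.25%, interval 4.02 to 11.9%). Only 4 stretches held 3 or more kept peaks, and together they held 22 of the 33 kept peaks, 18 of the 20 kept beside KAP1 among them. In the rest of the genome 11 of 445 peaks near KAP1 were kept (2.47%, interval 1.24 to 4.38%), with 9 of 184 on KAP1 (4.89%) and 2 of 261 beside it (0.766%, interval 0.0929 to 2.74%). These 4 stretches were picked because their peaks were kept, so leaving them out must lower the share. They bear on the neighbouring class too, since 7 of the 11 kept peaks over 10 to 20 kb from KAP1 lay within 20 kb of them.

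A stretch on chromosome 7 from 67018766 to 67040280 had all of its 10 WT H3K9me3 peaks kept. The 15 KO peaks there scored between 51.8 and 526 with a median of 138, against 51.7 to 143 with a median of 90.0 for the 10 WT peaks. The scores belong to separate lists and show no change in amount. The peaks covered 17.9 kb in KO and 8.79 kb in WT. No WT H4K20me3 peak overlapped these 10, and a KO H4K20me3 peak lay on 1 of them. The 3 KAP1 peaks near by scored only between 50.9 and 60.6.

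Another stretch on chromosome 7, from 12595651 to 12601335, also had every WT peak kept, 5 of 5. Its 5 KO peaks scored between 120 and 651 and its 5 WT peaks between 83.6 and 398, each within its own list. Its KAP1 peak, from 12595538 to 12596388, scored 70.4 and overlapped the strongest of the 5. On unplaced sequence (chromosome Un_random of the build), 4 of 6 peaks from 5241162 to 5256620 and 3 of 3 from 4520380 to 4527203 were kept, beside KAP1 peaks that scored 56.8 and 56.1. Reads from unplaced and repeated sequence may match several places, and the labels do not say how such reads were treated.

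**Figure D4:**
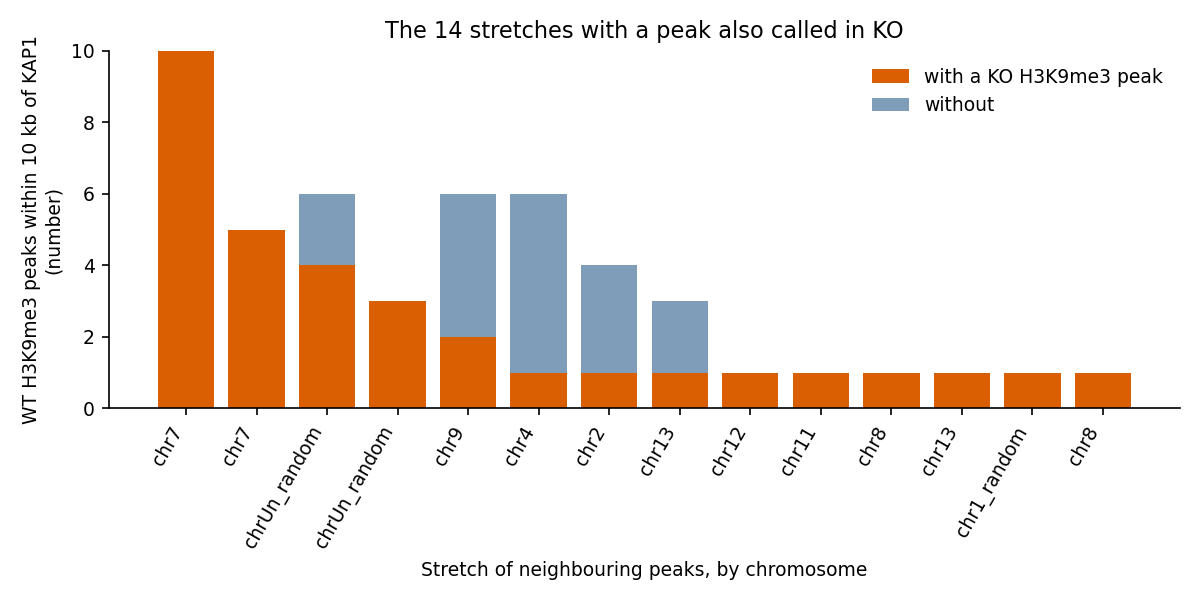
Number of WT H3K9me3 peaks within 10 kb of KAP1 that were also called in KO or not, in the 14 stretches of neighbouring peaks that held at least 1 kept peak, labelled by chromosome. The 4 bars on the left hold 22 of the 33 kept peaks, and on both stretches of chromosome 7 every peak was kept.

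Of the 33 kept peaks, 23 had as their nearest a KAP1 peak from the lowest of 3 groups by score. The 372 KAP1 peaks were ranked by score and split into 3 groups of 124. Near the lowest group (scores 50.1 to 68.8), 23 of 123 H3K9me3 peaks were kept (18.7%, interval 12.2 to 26.7%), near the middle group 7 of 111 (6.31%, interval 2.57 to 12.6%), and near the highest group (scores 142 to 3100) 3 of 235 (1.28%, interval 0.264 to 3.69%). The 3.10% kept among all WT H3K9me3 peaks lies inside the intervals of the middle and highest groups. Beside the highest group, 0 of 136 were kept, which allows a share of up to 2.21% as 3 counts of the total and up to 2.68% by the exact interval. The values near the lowest and middle groups lean on the bunched stretches. Without these they were 5.77% (6 of 104, interval 2.15 to 12.1%) and 1.89% (2 of 106, interval 0.229 to 6.65%), and both intervals hold 3.10%. The value near the highest group was unchanged at 1.28%. Among stronger KAP1 peaks, where few peaks were kept, no such order was detectable. With KAP1 peaks of a score of at least 100 alone, split again into 3 groups, the shares were 1.64% (1 of 61), 1.25% (1 of 80) and 2.04% (3 of 147) from the lowest group to the highest. With every list cut at 100 they were 3.12% (1 of 32), 0% (0 of 41, interval 0 to 8.60%) and 2.60% (2 of 77). Counting each KAP1 peak once, the 16 KAP1 peaks nearest a kept H3K9me3 peak had a median score of 60.4, and the 184 nearest lost peaks alone had 132. The 172 KAP1 peaks that were nearest to no such H3K9me3 peak had a median of 79.2.

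Strong KAP1 peaks were also those where H3K9me3 and H4K20me3 met most often. An H3K9me3 peak overlapped 33.1% of the KAP1 peaks of the lowest group (41 of 124), 36.3% of the middle one (45) and 63.7% of the highest (79). KAP1 peaks with such an overlap had a median length of 564 bp, against 462 bp for those without. How far KAP1 length bears on these shares was not tested. Of the H3K9me3 peaks on KAP1, 21.4% carried WT H4K20me3 at the lowest group (9 of 42), 22.9% at the middle one (11 of 48) and 42.4% at the highest (42 of 99, interval 32.5 to 52.8%). Beside KAP1 the shares were 7.41%, 3.17% and 22.8% (31 of 136, interval 16.0 to 30.8%). The H3K9me3 peaks on KAP1 at the highest group also ranked higher and were longer. Their median score percentile was 94.5, against 85.7 at the lowest group and 86.3 at the middle one. Median lengths were 1008 bp against 902 and 698 bp. The shares of these groups were not weighted by score or length. The scores of overlapping KAP1 and H3K9me3 peaks were only loosely related, with a Spearman rho of 0.21 between KAP1 score and WT H3K9me3 score over the 189 peaks on KAP1, a description over peaks of which some share a KAP1 peak.

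**Figure D5:**
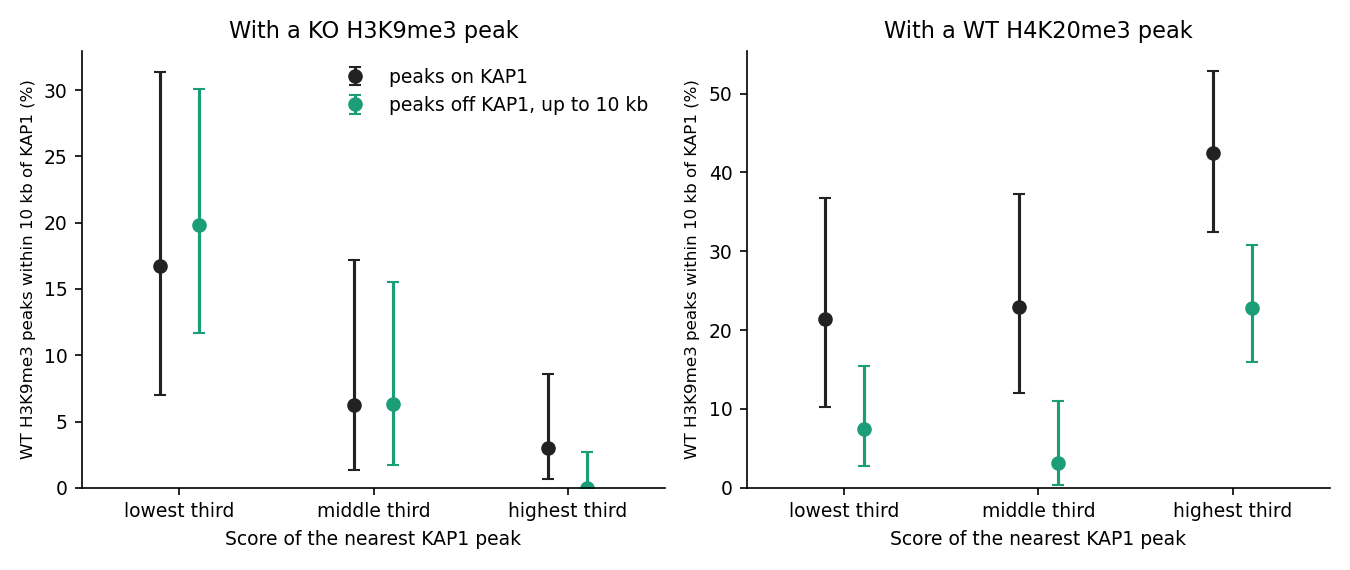
Share of WT H3K9me3 peaks within 10 kb of KAP1 with a KO H3K9me3 peak (left) and with a WT H4K20me3 peak (right), by the score of the nearest KAP1 peak in 3 equal groups, with exact 95% intervals over peaks (counting error only). The share called in KO is 16.7% and 19.8% at the weakest KAP1 peaks and 3.03% and 0% at the strongest, on KAP1 and beside it, and the share with H4K20me3 is highest at the strongest, at 42.4% and 22.8%. Among all WT H3K9me3 peaks 3.10% are called in KO. Without the 4 bunched stretches the share at the weakest KAP1 peaks, on and beside them together, is 5.77%.

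The 6 strongest lost peaks on KAP1 all carried H4K20me3 in WT, beside 62 of all 189 peaks on KAP1 (32.8%). The highest-ranked spanned 11407 bp on chromosome 2 (157379229 to 157390635), its KAP1 peak scored 2112, and WT H4K20me3 covered 91.2% of it. On chromosome 5 (144012813 to 144018417, 5605 bp) the KAP1 peak scored 3100 and WT H4K20me3 covered 74.7%. On chromosome 3 (98228258 to 98234511, 6254 bp) the KAP1 peak scored 1156 and WT H4K20me3 covered 89.1%. These ranked 1, 3 and 4 in the WT H3K9me3 list.

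The other three of the 6 were also long. On chromosome 10 (79200172 to 79204936, 4765 bp, rank 9), WT H4K20me3 covered the whole peak with a score of 3185. On chromosome 8 (79969837 to 79975196, 5360 bp, rank 15) the WT H4K20me3 peak scored 193 and the KAP1 peak 2931, each within its own list, and on chromosome 15 (79186810 to 79189863, 3054 bp, rank 20) the WT H4K20me3 score was 830. In KO, a weak H4K20me3 peak remained on those of chromosomes 3 and 15, with scores of 54.6 and 54.4, and none was called on the other 4.

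The kept peaks on KAP1 were of several kinds. That on chromosome 12 (20232477 to 20240604, 8128 bp, rank 5) had a KO H3K9me3 peak over 51.5% of its length, with a KO score of 335. On chromosome 4 (145422680 to 145430752, 8073 bp, rank 7), a KO peak of 1248 bp with a score of 196 covered 15.5%. On chromosome 2 (174123453 to 174126262, 2810 bp, rank 81) a KO peak of 444 bp covered 15.8%, with a score of 79.3. The last 2 count as lost when an overlap of at least 50% is required.

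The other three of the 6 highest-scoring kept peaks on KAP1 were shorter. That on chromosome 13 (25142001 to 25142707, 707 bp) was covered to 65.2% by a KO peak scoring 85.2, and that on chromosome 7 (12595651 to 12596395, 745 bp) to 92.3% by one scoring 651. That on chromosome 9 (89774871 to 89776242, 1372 bp) was covered to 82.1% by one scoring 156, at a KAP1 peak that scored 1014. All of these 6 kept peaks but that on chromosome 2 overlapped a WT H4K20me3 peak, so this overlap was not particular to the strongest lost peaks. Over all 33 kept peaks the median share covered by KO peaks was 97.1%, close to the 96.8% of kept peaks farther than 10 kb from KAP1. Of these 33, 30 were covered to at least 50%. Their KO peaks had a median score percentile of 92.7 in the KO list, against 85.1 for kept peaks farther than 10 kb from KAP1. The 33 met 31 distinct KO peaks, and 22 of the 33 lay in the 4 bunched stretches, so few places contribute to the 92.7.

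Among peaks beside KAP1, the strongest lost ones lay 152 to 2221 bp away. The highest-ranked, on chromosome 4 (145415018 to 145422677, 7660 bp, rank 8), lay 2221 bp from a weak KAP1 peak (score 66.7), the same that overlaps the kept peak at 145422680, so a kept and a lost peak shared 1 KAP1 peak. On chromosome 8 (73116862 to 73120289, rank 29) the distance was 1047 bp, on chromosome 16 (17802560 to 17805063, rank 113) 1774 bp, and on chromosome 17 (87525425 to 87527205, rank 211) 152 bp. WT H4K20me3 covered these 4 to between 79.4% and 100%. The 5th, on chromosome 6 (149307848 to 149309411, rank 261), had no H4K20me3 peak.

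The strongest kept peaks beside KAP1 ranked far lower, from 20 kept peaks against 260 lost ones, so nothing is read from their ranks. The first, on chromosome 11 (3000006 to 3005221, 5216 bp, rank 615), lay 9120 bp from a KAP1 peak that scored 60.2, and a KO peak with a score of 199 covered 94.5% of it. The other 4 belonged to both stretches of chromosome 7. They lay at 67023999 to 67024516 and 67026465 to 67027115, which met the same KO peak with a score of 526, and at 12597723 to 12598475 and 12596780 to 12597305, with KO scores of 223 and 120. None of the 5 overlapped a WT H4K20me3 peak, where 13.9% of all 280 peaks beside KAP1 did, and nothing is read from this count.

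H4K20me3 on these H3K9me3 peaks was mostly lost with them. Of the 93 WT H4K20me3 peaks that lay on H3K9me3 near KAP1, 10 were kept in KO (10.8%, interval 5.28 to 18.9%), against 80 of 1104 on H3K9me3 farther from KAP1 (7.25%, interval 5.79 to 8.94%), while 65.6% of all WT H4K20me3 peaks were kept. All 10 were among the 68 on H3K9me3 that overlapped KAP1. Of the 25 on H3K9me3 beside KAP1 alone, 0 were kept, which allows up to 12.0% as 3 counts and up to 13.7% by the exact interval. Near KAP1 but off H3K9me3, 55 of 85 WT H4K20me3 peaks were kept (64.7%, interval 53.6 to 74.8%), close to the 72.6% (7265 of 10013) far from both. The intervals of peaks on H3K9me3 near KAP1 and farther from it overlap, and a difference between them was not detectable.

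Seen per H3K9me3 peak, 12 of the 469 overlapped a KO H4K20me3 peak (2.56%, interval 1.33 to 4.43%), against 151 of 14127 farther away (1.07%), and 1.12% of all WT H3K9me3 peaks. Of the 101 with WT H4K20me3, 89 had neither mark called in KO, 4 had H3K9me3 alone, 5 had H4K20me3 alone and 3 had both. Of the 368 without WT H4K20me3, 341 had neither mark in KO. Retention of H3K9me3 was also split by H4K20me3 in WT. Farther than 10 kb from KAP1, 72 of 1167 peaks with WT H4K20me3 were kept (6.17%, interval 4.86 to 7.71%). Without it, 347 of 12960 were kept there (2.68%, interval 2.41 to 2.97%). A higher share among peaks with H4K20me3 is therefore not read as particular to KAP1. On KAP1, 7 of 62 peaks with WT H4K20me3 were kept (11.3%, interval 4.66 to 21.9%) and 6 of 127 without it (4.72%, interval 1.75 to 10.00%), intervals that overlap. The peaks with H4K20me3 were longer, with a median of 1653 bp against 783 bp. Beside KAP1, 0 of 39 with WT H4K20me3 were kept, which allows up to 7.69% as 3 counts and up to 9.03% by the exact interval, and 20 of 241 without it (8.30%, interval 5.14 to 12.5%), 18 of them in the 4 bunched stretches.

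KO H3K9me3 peaks near WT KAP1 positions lay partly where no WT peak was called. Of the 77 KO H3K9me3 peaks within 10 kb of a WT KAP1 peak, 35 overlapped one of the 469 WT peaks (45.5%) and 42 lay where no WT peak was called. Farther away, 396 of 3099 KO peaks overlapped a WT peak (12.8%). WT H3K9me3 peaks were far denser near KAP1, covering 42.8% of the sequence on KAP1 peaks and 0.336% of the whole span. How far this bears on the shares was not tested. The 4 bunched stretches held 15, 5, 4 and 3 of the KO peaks. The 42 KO peaks without a called WT peak had a median score percentile of 48.7 in the KO list, and 13 of them lay within 10 kb of the 4 bunched stretches.

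Peaks near KAP1 were unevenly shared among chromosomes. Chromosome 7 had the largest share, with 40 of its 317 WT H3K9me3 peaks near KAP1 (12.6%) and the largest number of KAP1 peaks, 33. Among chromosomes 1 to 19 and X, chromosome 6 followed with 42 of 711 (5.91%), and unplaced sequence of Un_random had 9 of 105 (8.57%). Chromosome 4, which had most WT H3K9me3 peaks of all, had 20 of 1283 near KAP1 (1.56%), and chromosome 3 had 15 of 1195 (1.26%), the smallest share among chromosomes 1 to 19 and X. Chromosome 7 held 15 of the 33 kept peaks, all in its 2 bunched stretches, and unplaced sequence of chromosome Un_random held 7 of its 9. On chromosomes 10, 17 and 6, with 43, 44 and 42 peaks near KAP1, none was kept, beside 3.10% of all WT H3K9me3 peaks, and nothing is read from these zeros. On the same chromosomes 10, 13 and 10 of them carried WT H4K20me3. Of all 469 peaks near KAP1 21.5% did, and of all WT H3K9me3 peaks 8.69%, so these counts are not read as particular to the 3 chromosomes.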

How the data were processed

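The submitters' processing notes name the tools CASAVA 1.82, Bowtie2 2.2.1 and MACS 1.4, and build mm9. Which settings and controls the histone calls used is not given. The header of the KAP1 list names a WT KAP1 library set against a WT MEF library. The authors deposited 1 score per peak, read here as a MACS score from its values, and peaks were called per library.

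Deposited positions are given counting from 1. Distances are between nearest edges. Distances and overlaps (Python 3.11.15, pandas 2.3.3, numpy 2.4.6) equalled those of bedtools 2.31.1 for every peak. Intervals came from scipy 1.17.1 and figures from matplotlib 3.10.9. The code was tested on simulated data. Peaks farther from KAP1 were weighted to deciles of score or length. Named regions are the highest-scoring kept and lost peaks on KAP1 (6 each) and beside it (5 each) on chromosomes 1 to 19, X and Y, the 3 KAP1 peaks with most H3K9me3 peaks, and 2 peaks on either side of 10 kb. Regions and rules were chosen with earlier results of these data known, and stretches and groups of KAP1 score after the values were seen. The planned description of sequence and genes was not run.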

Additional observations from a re-analysis of the deposited data

How the results depend on the processing

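No paired analysis was possible because each group has 1 library. The alternatives left in place that most peaks near KAP1 were lost in KO. The number of peaks near KAP1, 469, was 150 with all lists cut at a score of 100, 288 with the KAP1 list cut at 100, 198 with equal numbers of highest-scoring peaks, 207 with peaks within 5 kb merged and 200 with the highest-scoring peak of each KAP1 peak alone. The share kept in KO, 7.04%, was 2.00% with all lists cut at 100 and 1.74% with the KAP1 list cut at 100. Of the alternatives added after seeing the data, leaving out the 4 bunched stretches gave 2.47% and leaving out chromosome 7 gave 4.20%. The share with WT H4K20me3, 21.5%, was 15.1% with 50% overlap required, 29.0% with a distance of up to 1 kb, 32.0% with all lists cut at 100, 28.1% with the KAP1 list cut at 100, 30.8% with equal numbers, 27.5% with peaks merged and 27.5% with 1 peak per KAP1 peak. The share of their H4K20me3 peaks kept, 10.8%, was 3.95% with 50% overlap required, 4.35% with all lists cut at 100 and 25.4% with peaks merged. The median length, 582 bp, was 987 bp, 1088 bp, 1666 bp and 957 bp with all lists cut at 100, equal numbers, merging and 1 peak per KAP1 peak. The median score percentile, 69.0, was 76.2, 86.1 and 89.9 with all lists cut at 100, merging and 1 peak per KAP1 peak. Beside KAP1, the share with WT H4K20me3, 13.9%, was 4.35% with peaks merged, 8.93% with 1 peak per KAP1 peak and 27.0% with all lists cut at 100, and the share kept, 7.14%, was 0.581% (1 of 172) with the KAP1 list cut at 100. Limits of 5 or 20 kb, distances between centres, chromosomes 1 to 19 and X alone and leaving out chromosome 4 kept the first 6 of these values within their counting intervals, or within 1.5 times for the number. Some alternatives themselves select stronger or longer peaks, and the cause of a shift was not tested for any alternative. The unknown depth limits what an uncalled peak shows.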
